A study of Homo sapiens with 10 samples.

Results

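The insulin-like growth factor (IGF) binding proteins IGFBP1 to IGFBP7 and the receptors IGF1R and IGF2R were followed in irradiated and control human proximal tubular cells. These 9 genes were chosen by name, as 9 of the 61587 rows of the gene count table, each matched through its Ensembl identifier. All 9 reached the limit of 200 counts over the samples and were among the 19006 genes tested.

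RPTEC/TERT1 cells are human renal proximal tubular epithelial cells immortalised with telomerase. Bulk RNA-seq of polyA RNA was performed on 5 samples given 10 Gy of gamma irradiation (irradiated, replicates 1 to 5) and on 5 mock-irradiated samples (control, replicates 1 to 5). RNA was taken at day 7 in both groups. The study irradiated these cells to induce senescence, and grew both groups in medium that contained insulin, hydrocortisone and epidermal growth factor. Each control and irradiated sample with the same number were treated as a pair. Nothing in the sources says that replicates came from separate thaws of the cells. The p-values therefore measure the spread between these samples, part of which may be technical. Replicates 4 and 5 were the most alike in both groups, so the 5 pairs may stand for fewer independent ones.

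IGF1 and IGF2 are small hormones related to insulin. They signal through IGF1R, a receptor tyrosine kinase that acts on the PI3K and AKT pathway, whereas IGF2R binds IGF2 without such signalling and carries it to lysosomes, along with enzymes tagged with mannose 6-phosphate. IGFBP1 to IGFBP6 are secreted proteins that bind IGFs tightly and hold them away from the receptor until proteases cut them, and IGFBP7 is a relative with low affinity for IGFs. Several IGFBPs are secreted by senescent cells, and IGFBP7 is used in urine as a marker of tubular stress.

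The genes lie singly or in neighbouring pairs on GRCh38. IGFBP1 (chr7:45888360-45893660, plus strand) and IGFBP3 (chr7:45912245-45921874, minus strand) point towards each other across 18584 bases. IGFBP2 (chr2:216632828-216664436, plus strand) and IGFBP5 (chr2:216672105-216695549, minus strand) do so across 7668 bases. IGFBP4 lies at chr17:40443450-40457725, IGFBP6 at chr12:53097436-53102345, IGFBP7 at chr4:57030773-57110385, IGF1R at chr15:98648539-98964530 and IGF2R at chr6:159969082-160113507. Reads shared by genes on opposite strands appear to be left out of the counts, and 18.3% of the exon length of IGFBP7 and 7.53% of that of IGFBP5 lie under exons of the other strand. The levels of these 2 genes can therefore be too low.

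Promoter sequence from RefSeq was held for 7 of the 9 genes, not for IGFBP1 and IGFBP7. The 250 bases before the start are shown for IGFBP3 and IGFBP4, which rose more than 2-fold, and for IGFBP5, which did not pass the test. They are read 5′ to 3′ on the strand of the gene in GRCh38.p14, at chr7:45921273-45921522 (minus strand), chr17:40443200-40443449 (plus strand) and chr2:216695550-216695799 (minus strand). The window of IGFBP3 lies inside the annotated gene but in no annotated exon, and that of IGFBP5 overlaps an exon of DIRC3-AS1 on the opposite strand. Capitals mark matches, on either strand, to a TATA-like motif (TATANA) or a GC box (GGGCGG).
IGFBP3: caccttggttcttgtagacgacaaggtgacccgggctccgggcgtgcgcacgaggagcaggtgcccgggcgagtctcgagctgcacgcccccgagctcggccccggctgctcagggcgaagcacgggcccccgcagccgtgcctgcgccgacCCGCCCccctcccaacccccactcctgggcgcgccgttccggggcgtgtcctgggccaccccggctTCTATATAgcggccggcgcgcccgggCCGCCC
IGFBP4: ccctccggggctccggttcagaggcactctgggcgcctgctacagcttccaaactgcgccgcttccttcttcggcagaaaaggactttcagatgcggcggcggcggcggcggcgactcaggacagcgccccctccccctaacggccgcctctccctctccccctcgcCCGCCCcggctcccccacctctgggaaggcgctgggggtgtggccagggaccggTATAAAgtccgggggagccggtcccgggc
IGFBP5: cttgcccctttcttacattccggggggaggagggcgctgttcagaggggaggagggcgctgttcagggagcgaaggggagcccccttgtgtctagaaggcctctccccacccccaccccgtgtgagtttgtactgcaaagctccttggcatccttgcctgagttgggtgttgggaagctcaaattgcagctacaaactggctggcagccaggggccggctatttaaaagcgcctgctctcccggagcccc
IGFBP3 and IGFBP4 each hold a TATA-like match about 30 bases before the start, and 17.7% of 35116 windows of this length over all genes hold such a match anywhere. At least 1 GC box was found for both, with a share of 42.6% over all windows. The window of IGFBP5 held a match to neither motif, and it held no AP-1-like motif (TGANTCA). Near its end it holds the letters tatttaaaa, which TATANA does not cover. The lack of a match is thus not the lack of a TATA-like element. A FOXO-like motif (GTAAACA) was searched as well and found in none of these 3 windows. The same held for an insulin response-like motif (CAAAACA). Of the windows not shown, that of IGFBP6, which also rose, held a FOXO-like match at position -186 and no TATA-like match. Most of that window, including this match, lies inside the annotated gene, which starts at base 53097436. The windows of IGFBP2, IGF1R and IGF2R held neither a FOXO-like nor a TATA-like match. IGFBP2 had several windows, some of them inside the annotated gene. The CCAAT box and the AP-1-like motif were likewise not found in the windows of IGFBP3 and IGFBP4, and the CCAAT box not in that of IGFBP5. Of all windows, 6.57% held the AP-1-like, 2.98% the FOXO-like and 4.3% the insulin response-like motif, and 32.0% the CCAAT box. GC content was 76.0% for IGFBP3, 71.6% for IGFBP4 and 61.2% for IGFBP5, against a median of 58.0% over all windows. A match is a description of these letters and not a site.

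Irradiated RPTECs expressed more IGFBP1, IGFBP3, IGFBP4 and IGFBP6 and less IGFBP2 than control RPTECs, while IGFBP5, IGFBP7, IGF1R and IGF2R did not pass the test. By the quasi-likelihood test of edgeR, adjusted over all genes after Benjamini and Hochberg, 5 of 9 members were called at a threshold of 0.05, beside 46.6% of all 19006 genes tested. Of these, 4 rose (23.9% of all genes did) and 1 fell (22.7% did). A rise of more than 2-fold was called for 3 members (5.26% of all genes) and a fall of more than 2-fold for 1 (4.06%). For the same 5 members the values of the groups did not overlap, as held for 26.7% of all genes. The share of members called is thus close to the background, and their median log2 fold change was 0.04, against -0.01 over all genes. Expression is given as CPM, the counts of a gene scaled to a common library total, after TMM normalisation. In RNA from a whole culture, fewer cells expressing a gene and less RNA of it per cell cannot be told apart.

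**Figure D1:**
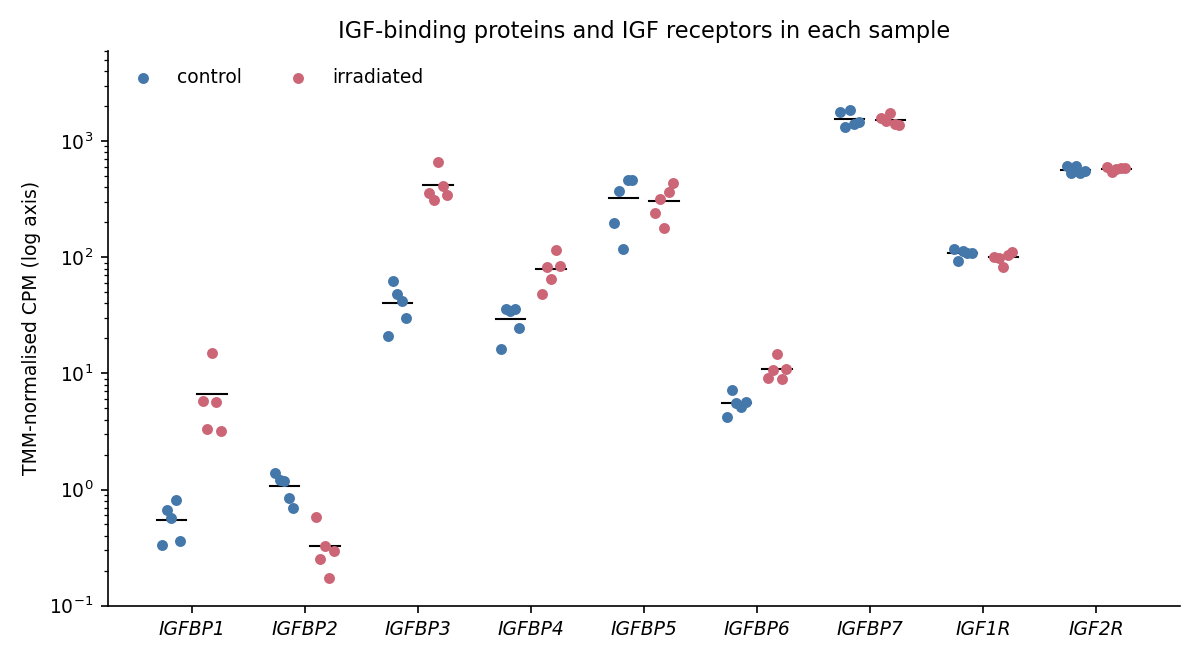
TMM-normalised CPM (log axis) of the 9 genes in each of 5 control and 5 irradiated samples. Points are samples in order of replicate number and black bars are group means, and the groups lie apart for IGFBP1, IGFBP2, IGFBP3, IGFBP4 and IGFBP6 but share their range for IGFBP5, IGFBP7, IGF1R and IGF2R.

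IGFBP3, the main carrier of IGFs in blood and a known target of p53, rose to the highest mean level per length among the members other than IGFBP7. IGFBP7 stayed well above it. In control samples IGFBP3 stood at 20.9, 62.1, 48.3, 42.1 and 30.3 CPM in replicates 1 to 5. In irradiated samples it stood at 359.5, 310.6, 655.5, 413.0 and 340.6 CPM. The lowest irradiated sample lay far above the highest control, and irradiated replicate 3 was the highest of all. By edgeR this was a log2 fold change of 3.40 with a standard error of 0.24 (adjusted p = 5.27e-05), or 10.5-fold, with the irradiated sample higher in 5 of 5 pairs. Among all genes tested this was the rise of rank 68.

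IGFBP1, which liver makes under fasting and which insulin represses in hepatocytes, rose by as much from a far lower level. Control samples had 27, 93, 57, 87 and 43 counts, or 0.330, 0.665, 0.568, 0.808 and 0.361 CPM. Irradiated samples had 573, 223, 1391, 521 and 282 counts, or 5.78, 3.33, 15.0, 5.67 and 3.19 CPM. The groups did not overlap, and irradiated replicate 3 lay well above the other irradiated samples. The rise amounted to 3.39 on the log2 scale with a standard error of 0.34 (adjusted p = 0.000219 in edgeR), and to 3.02 without replicate 3. It ranked 70 among the rises of all genes. The fold changes of these neighbouring genes, 10.5-fold for each, lay within each other's intervals.

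IGFBP4, a binding protein that is inactivated by the protease PAPPA, stood at 16.4, 35.9, 34.6, 35.7 and 24.8 CPM in control samples. It stood at 48.2, 81.8, 64.6, 115.3 and 83.3 CPM in irradiated samples. The lowest values of both groups were those of replicate 1, and even the lowest irradiated sample exceeded every control. IGFBP4 rose 2.67-fold, or by 1.42 on the log2 scale with a standard error of 0.12 (adjusted p = 0.000118 in edgeR).

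IGFBP6, which prefers IGF2 over IGF1, was lower in level and changed less. Control samples lay at 4.17, 7.13, 5.59, 5.13 and 5.63 CPM and irradiated samples at 9.10, 10.7, 14.6, 8.97 and 10.8 CPM. The groups did not overlap, with irradiated replicate 3 again the highest. The estimate of 0.97 on the log2 scale had a 95% interval of 0.70 to 1.24 (adjusted p = 0.000475 in edgeR), which includes a 2-fold rise.

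IGFBP2, which carries an integrin-binding motif and binds IGF2 well, was the only member called lower. It was scarce, at 114, 169, 119, 91 and 82 counts in control samples and 57, 17, 30, 16 and 26 counts in irradiated samples. In CPM, control samples lay at 1.39, 1.21, 1.19, 0.845 and 0.689 and irradiated samples at 0.575, 0.254, 0.324, 0.174 and 0.294. The highest irradiated sample, replicate 1, stayed under the lowest control. With a log2 fold change of -1.73 and a standard error of 0.19 (adjusted p = 0.000344 in edgeR), this was a 3.32-fold fall seen in 5 of 5 pairs.

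**Figure D2:**
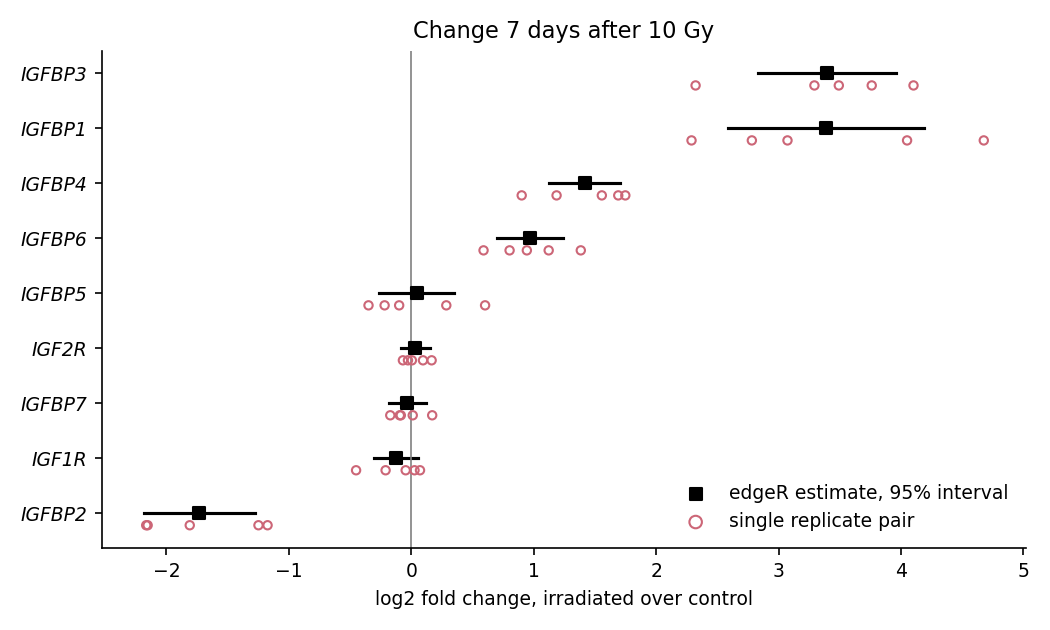
Log2 fold change of irradiated over control for the 9 genes, with edgeR's estimate and its 95% interval (squares and lines) and the difference within each of the 5 replicate pairs (open circles). IGFBP3 and IGFBP1 stand highest at 3.40 and 3.39, IGFBP2 stands lowest at -1.73, and the intervals of IGFBP5, IGF2R, IGFBP7 and IGF1R include 0.

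IGFBP7, which is secreted by stressed tubular and senescent cells, was by far the most abundant member and did not pass the test. Control samples stood at 1770.5, 1311.1, 1855.2, 1390.5 and 1449.8 CPM. Irradiated samples stood at 1571.7, 1475.7, 1738.2, 1401.8 and 1366.3 CPM. The ranges of the groups overlapped, and replicates 1 and 3 were the highest in both. Its log2 fold change of -0.03 (95% interval -0.19 to 0.12, adjusted p = 0.698 in edgeR) leaves no room for a 2-fold change in either direction.

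IGFBP5, a binding protein that adheres to extracellular matrix, differed more between replicate numbers than between groups. Control samples stood at 196.7, 369.1, 116.9, 466.4 and 463.8 CPM and irradiated samples at 239.8, 317.4, 177.6, 366.1 and 432.9 CPM. Replicates 1 and 3 were the lowest in both groups, the reverse of IGFBP7. Within pairs the irradiated sample was higher by 0.29 and 0.60 on the log2 scale in replicates 1 and 3, and lower in the other pairs, with differences of -0.22, -0.35 and -0.10. The log2 fold change over all pairs was 0.04 (95% interval -0.27 to 0.35, adjusted p = 0.813 in edgeR). Without replicates 1 and 3 it was -0.24 (standard error 0.06, adjusted p = 0.0161 in edgeR), and IGFBP5 was called lower in the remaining 3 pairs. The pairs left out were those in which IGFBP5 was higher after irradiation, which fixed the direction of this estimate. This call is therefore no evidence of a fall.

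Control replicates 1 and 3 also differed from the other controls in genes of proliferation. The mean of MKI67, TOP2A, CCNB1, CCNA2 and CDK1, picked after the values of IGFBP5 had been seen, was 4.58 and 4.55 log2 CPM in these controls and 5.99 to 6.10 in the other controls. Irradiated samples lay at 3.74 or below, with replicates 1 and 3 at 3.54 and 3.74. The cell cycle inhibitor CDKN1A stood at 207.6 CPM in control replicate 3 and between 66.7 and 80.9 in the other controls. The part of these differences in the values of IGFBP5 and IGFBP7 was not tested. The rises of IGFBP1, IGFBP3, IGFBP4 and IGFBP6 and the fall of IGFBP2 were also called without replicates 1 and 3, where the log2 fold change of IGFBP1 was 2.71 and that of IGFBP3 was 3.02.

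**Figure D3:**
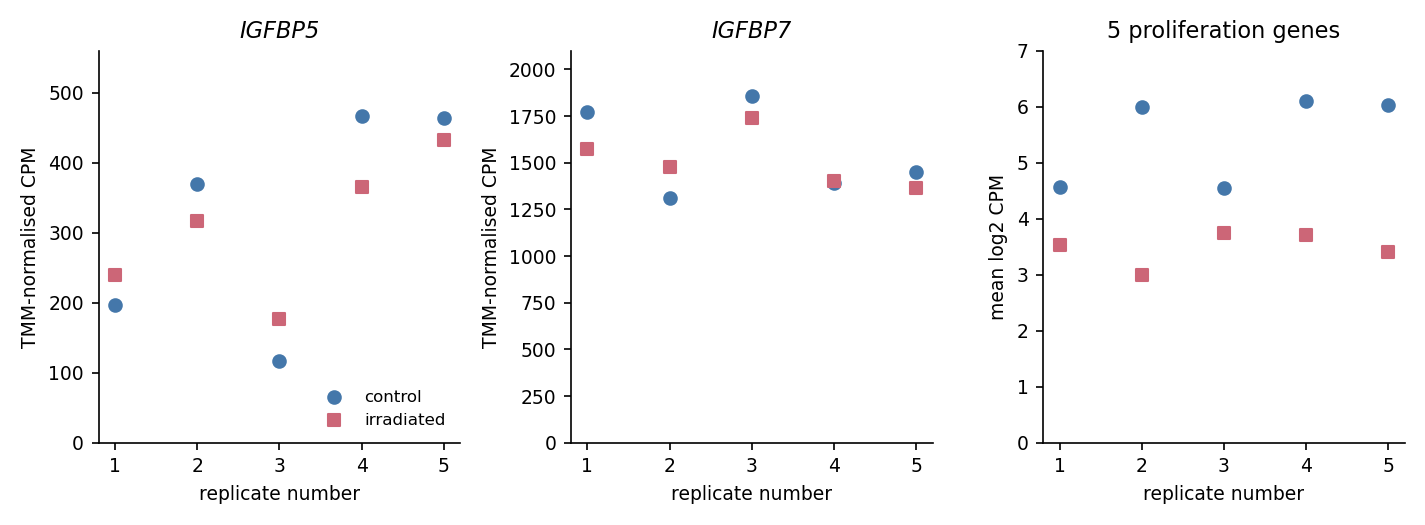
IGFBP5 (left, TMM-normalised CPM), IGFBP7 (middle, TMM-normalised CPM) and the mean log2 CPM of 5 proliferation genes (right) against replicate number, for control (circles) and irradiated (squares) samples. Replicates 1 and 3 are low for IGFBP5 and high for IGFBP7 in both groups, while the proliferation genes are low in these replicates among controls, at 4.58 and 4.55 against 5.99 to 6.10.

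The receptors stayed within narrow ranges. IGF1R stood at 117.0, 93.4, 113.6, 108.3 and 108.6 CPM in control samples and at 101.1, 98.1, 83.1, 104.9 and 110.6 CPM in irradiated samples. IGF2R stood at 611.6, 535.1, 605.3, 526.7 and 547.9 CPM in control samples and at 600.2, 536.9, 577.2, 591.0 and 585.4 CPM in irradiated samples. The groups overlapped for both genes. The 95% interval of the log2 fold change was -0.30 to 0.06 for IGF1R (adjusted p = 0.231 in edgeR) and -0.09 to 0.16 for IGF2R (adjusted p = 0.623 in edgeR). A change larger than 1.5-fold lies outside each interval.

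Levels of different genes were compared per length, as RPKM (CPM per kilobase of merged exons). In control samples IGFBP7 stood at 805.9 ± 125.4 RPKM (SD, n = 5), followed by IGFBP5 at 49.9 ± 24.6, IGF2R at 25.0 ± 1.8, IGFBP4 at 13.4 ± 3.9, IGFBP3 at 8.92 ± 3.49, IGF1R at 7.76 ± 0.65, IGFBP6 at 4.11 ± 0.79, IGFBP1 at 0.333 ± 0.123 and IGFBP2 at 0.225 ± 0.061. Ranges of neighbours in this order overlapped for IGFBP5 and IGF2R, for IGFBP4 and IGFBP3, for IGFBP3 and IGF1R, and for IGFBP1 and IGFBP2. In irradiated samples the order was IGFBP7 at 782.8 ± 77.5 RPKM (SD, n = 5), IGFBP3 at 91.0 ± 30.4, IGFBP5 at 47.4 ± 15.6, IGFBP4 at 35.7 ± 11.3, IGF2R at 25.6 ± 1.1, IGFBP6 at 8.07 ± 1.70, IGF1R at 7.14 ± 0.74, IGFBP1 at 4.02 ± 2.96 and IGFBP2 at 0.0684 ± 0.0319. IGFBP3 was thus in the fifth place in control and in the second in irradiated samples. Per length of the longest transcript it stood at 15.5 and 158.0 RPKM, in the fourth and the second place, and IGF2R then stood above IGFBP4 in irradiated samples too. Per merged exons, the range of IGFBP3 in irradiated samples lay just above that of IGFBP5, from 68.0 RPKM against up to 67.0. The level of IGFBP5 can be too low, so this order of the ranges is not firm. IGFBP5, IGFBP4 and IGF2R overlapped as neighbours, as did IGFBP6, IGF1R and IGFBP1.

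The make-up of the IGFBP transcripts shifted accordingly. As a share of the summed RPKM of IGFBP1 to IGFBP7, IGFBP7 held 91.0% ± 3.9 (SD, n = 5) in control and 80.8% ± 2.8 in irradiated samples, with ranges of 87.6% to 95.2% and 77.6% to 84.6%. IGFBP3 held 1.04% ± 0.48 and 9.25% ± 2.15. Among IGFBP1 to IGFBP6 alone, IGFBP5 held 62.3% ± 15.2 in control and 26.0% ± 8.5 in irradiated samples, and IGFBP3 held 12.4% ± 5.8 and 48.4% ± 10.7. Per length of the longest transcript this share of IGFBP3 was 19.0% in control and 60.8% in irradiated samples. The summed level of IGFBP1 to IGFBP6 was 76.8 ± 27.0 RPKM in control and 186.3 ± 30.2 in irradiated samples. These sums were given no test.

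**Figure D4:**
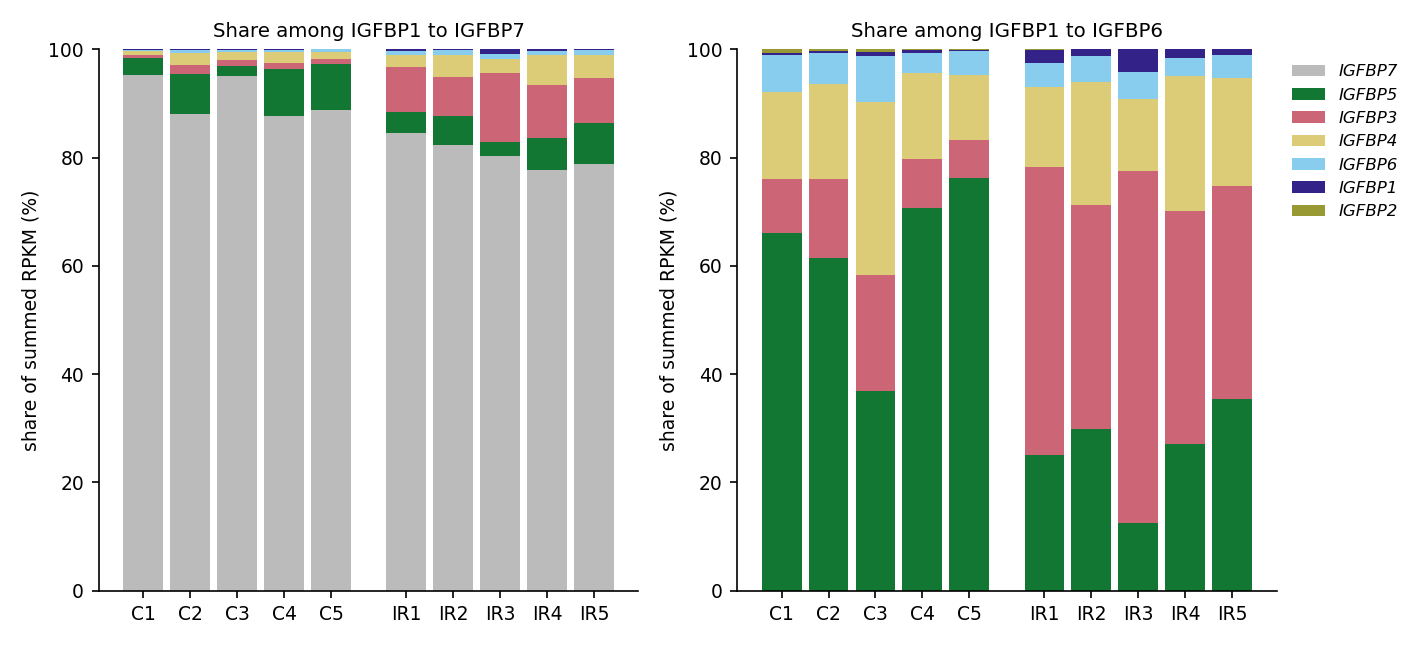
Share of each gene (%) in the summed RPKM of IGFBP1 to IGFBP7 (left) and of IGFBP1 to IGFBP6 (right), for control samples C1 to C5 and irradiated samples IR1 to IR5, 1 stacked bar per sample. IGFBP7 fills most of every bar on the left, and on the right the share of IGFBP3 grows from 12.4% to 48.4% on average while that of IGFBP5 shrinks from 62.3% to 26.0%.

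The 2 pairs of neighbouring genes behaved differently. IGFBP1 and IGFBP3 changed by almost the same fold over all pairs, while IGFBP2 fell and IGFBP5 did not pass the test. In pair 3 the log2 differences were 4.68 for IGFBP1 and 3.76 for IGFBP3. Without replicate 3 their log2 fold changes were 3.02 and 3.30. Within 1 Mb of IGFBP1 and IGFBP3 only CCM2, NACAD and TBRG4 were also tested among protein-coding genes, with log2 fold changes of 0.36, -0.40 and 0.08. ADCY1 (109 counts over all samples), MYO1G (37 counts), RAMP3 (1 count) and CCDC201 (1 count) were under the limit. Within 1 Mb of IGFBP2 and IGFBP5 the log2 fold changes of the tested neighbours ran from -0.52 for MREG to 4.12 for MARCHF4. MARCHF4, a membrane-bound ubiquitin ligase, had 308 counts over all samples (standard error 0.42, adjusted p = 0.000225 in edgeR) and was named after its value was seen.

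**Figure D5:**
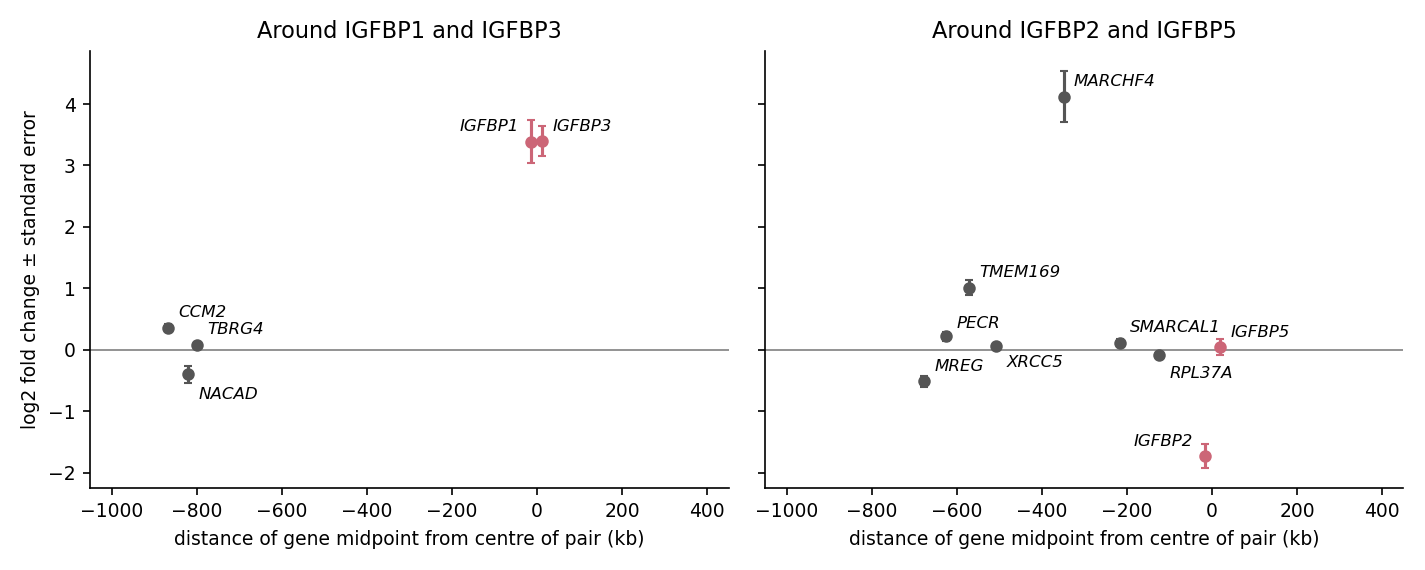
Log2 fold change (± standard error) of the tested protein-coding genes within 1 Mb of IGFBP1 and IGFBP3 (left) and of IGFBP2 and IGFBP5 (right), against the distance of the gene's midpoint from the centre of the pair in kb. IGFBP1 and IGFBP3 stand together at 3.39 and 3.40 with CCM2, NACAD and TBRG4 between -0.40 and 0.36, whereas IGFBP2 (-1.73) and IGFBP5 (0.04) stand apart.

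Other genes of the IGF pathway were read from lists of 74 genes, of which 61 were tested. Of these, 18 rose and 12 fell, a share of 49.2% called. Of all genes, 46.6% were called, 23.9% higher and 22.7% lower, and the counts by list below stand beside these shares. The median log2 fold change of the listed genes tested was 0.04. The ligands themselves were near 0: IGF1 had 0 counts over the 10 samples, and IGF2 and INS had 1 count each. In the annotation 82.5% of the exon length of IGF1 and 43.2% of that of IGF2 is shared with other genes, and INS-IGF2, which shares exons with IGF2, had 0 counts. Low counts of IGF1 and IGF2 are therefore not proof that their RNA was lacking. IGFALS, which stabilises IGF complexes in blood, did not pass the test.

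Among proteases that cut IGFBPs and the stanniocalcins that block PAPPA proteases, 3 of 8 rose and 1 fell. The rises were those of the stanniocalcins STC1 and STC2 and of the protease ADAM12. The proteases ADAM9 and HTRA1, highest in CPM on this list, did not pass the test. PAPPA2, which cuts IGFBP3 and IGFBP5, stood at 55.3, 107.2, 19.6, 28.8 and 40.4 CPM in control samples and at 17.1, 17.6, 1.60, 4.28 and 4.60 CPM in irradiated samples. The groups did not overlap, and replicate 3 was the lowest in both. PAPPA2 had a log2 fold change of -2.72 with a standard error of 0.24 (adjusted p = 0.000126 in edgeR), which is a 6.57-fold fall. STC2, a stanniocalcin, rose from 0.329 ± 0.102 to 1.57 ± 0.80 CPM (SD over 5 samples), by 2.19 on the log2 scale. ADAM12, another IGFBP protease, rose from 2.86 ± 0.80 to 5.59 ± 0.88 CPM. PAPPA, whose exons lie for 21.1% of their length under the other strand, had a log2 fold change of -0.31 (adjusted p = 0.236 in edgeR).

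The insulin receptor INSR, which can pair with IGF1R, fell from 4.85 ± 0.42 to 1.47 ± 0.45 CPM (SD over 5 samples). This fall of -1.76 on the log2 scale had a standard error of 0.18 (adjusted p = 0.000207 in edgeR), and the lowest control lay at 4.15 CPM against 2.03 in the highest irradiated sample. INSRR was under the limit with 13 counts. Of 14 tested receptor adaptors and PI3K genes, 5 rose and 4 fell. PIK3R1, the regulatory subunit of PI3K, rose from 35.6 ± 5.4 to 84.2 ± 5.9 CPM (log2 fold change 1.25), and GRB10, an adaptor that restrains the receptors, from 52.0 ± 4.2 to 66.5 ± 5.0. GRB14, a related adaptor, fell from 45.9 ± 3.1 to 23.9 ± 7.2 CPM, and IRS1, the docking protein below IGF1R, from 110.2 ± 4.4 to 93.1 ± 9.5 (SD over 5 samples).

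Of 13 AKT, mTOR and FOXO genes 3 rose and 2 fell. The transcription factor FOXO1, which AKT keeps out of the nucleus, rose from 28.1 ± 4.9 to 43.2 ± 4.7 CPM, with 22.7% of its exon length shared with another gene of its strand. GSK3B, a kinase that AKT inhibits, rose from 88.1 ± 3.7 to 115.8 ± 7.4, and AKT2 fell from 228.1 ± 35.9 to 194.8 ± 16.3 CPM (SD over 5 samples). Among 10 tested genes known as FOXO targets, 3 rose and 4 fell, INSR among the latter. PIK3IP1, an inhibitor of PI3K, rose from 9.89 ± 0.88 to 22.7 ± 1.6 CPM and SESN1, which is also a p53 target, from 14.5 ± 1.6 to 22.6 ± 3.1. CDKN1B, the cell cycle inhibitor p27, fell from 67.7 ± 4.3 to 32.9 ± 3.4 CPM (SD over 5 samples).

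Of the IGFBP-related proteins, 4 of 9 were tested, and 2 rose and 1 fell. CCN2, a matricellular growth factor linked to fibrosis, rose from 77.9 ± 30.7 to 168.7 ± 25.4 CPM and CCN3 from 16.6 ± 8.8 to 37.4 ± 7.4. KAZALD1 fell from 7.87 ± 1.32 to 5.13 ± 0.84 CPM. The IGF2 mRNA-binding proteins, which share only a name with the IGFBPs, changed little, with IGF2BP2 lower (log2 fold change -0.37) and IGF2BP3 higher (0.25). Of 10 genes that tag or sort proteins with mannose 6-phosphate, the cargo of IGF2R, 1 rose and 9 did not pass the test. This is a lower share called than the 46.6% of all genes. The gene that rose was GNPTAB, a subunit of the enzyme that adds the tag, from 91.1 to 146.5 CPM on average. Its log2 fold change was 0.68. The other strand covers 50.6% of the exon length of GNPTG and 30.9% of that of M6PR, so their levels can be too low.

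For IGFBP5 and IGF2R, the genes with the most similar pattern over the 10 samples were sought among 12825 others by Pearson's r of log2 CPM. For IGFBP5 they were EFR3A (r = 0.967), GEMIN5 (0.966) and CHAMP1 (0.965). For IGF2R they were PDE6D (0.887), MYO6 (0.886) and ANKRD6 (0.877). These values are descriptions over samples that share libraries, depth and pairing.

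Depth ranged from 66269311 to 131555873 counts per sample. CDKN1A stood at 584.4 to 768.4 CPM in irradiated samples, above every control. Among renal epithelial markers, PAX8 stood at 468.4 CPM or above, KRT8 at 795.5 CPM or above and EPCAM at 252.9 CPM or above in every sample, while CDH6 rose 6.51-fold and CDH16 fell 1.71-fold. Of 8 markers of differentiated proximal tubule, LRP2 (17 counts over all samples), HNF4A (12) and SLC34A1 (86) were under the limit. The other 5 were tested. ANPEP lay between 188.4 and 462.9 CPM, GGT1 between 7.05 and 14.2 CPM and CUBN between 3.24 and 5.92 CPM over all samples. SLC5A2 reached at most 0.414 CPM, and AQP1 was called lower (log2 fold change -0.61). Other genes share 56.5% of the exon length of GGT1, 40.7% of SLC5A2 and 27.9% of AQP1, so these levels can be too low. The other strand covers 22.4% for PAX8 and 36.0% for ACTA2, with the same limit. Fibroblast markers (2 of 7 tested) summed to 16.3 to 24.6 CPM by library size in control and 28.4 to 37.6 in irradiated samples, with COL1A1 and DCN called higher and LUM (2 counts) and COL3A1 (4 counts) near 0. Endothelial markers (3 of 5 tested, 2 of them higher) summed to 1.26 to 2.54 and 4.23 to 5.57, with KDR at 2 counts. Smooth muscle markers summed to 5.24 to 6.23 and 4.92 to 9.49, with ACTA2 called higher (log2 fold change 0.41), MYH11 called lower (-0.53) and DES at 7 counts. Leucocyte markers summed to 0.275 to 0.679 and 0.325 to 0.622, with CD3E at 3 counts. Their part in the changes of IGFBPs was not tested.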

How the data were processed

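Per the labels and the study's methods, polyA RNA was sequenced from 5 control and 5 irradiated RPTEC/TERT1 samples. The labels and the methods name different library kits, and the labels number the line upward from sample to sample, where the series text names RPTEC/TERT1 alone. The authors trimmed adapters, aligned reads to GRCh38 with STAR, counted them per gene and deposited whole-number counts without normalisation. The annotation release is not given in the sources used here. GENCODE annotation of GRCh38 gave coordinates, lengths and overlaps. Among long non-coding RNA genes, 0 counts were found for 97.9% of 425 whose exons are fully covered from the other strand and for 28.8% of 12007 others, so counts were treated as unstranded with shared reads left out. Symbols matched 61415 of 61587 rows.

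The counts were tested with edgeR 4.0.16 in R 4.3.3 (TMM, glmQLFit, glmQLFTest) on genes with at least 200 counts, with replicate number as a block as in the study's model, and with Benjamini-Hochberg adjusted p-values and a threshold of 0.05. Numbers were taken to pair samples because deviations from group means correlated for each of the 5 numbers (0.22 to 0.51, against -0.35 to 0.32 for different numbers). No 2 replicates were alike within sampling noise, but replicates 4 and 5 were by far the closest. Measured by chi-square and averaged over genes, they differed by 15.2 as controls and by 8.50 as irradiated samples. All other differences were at least 57.2 and 40.5. Control 4 with irradiated 5 (0.295) and control 5 with irradiated 4 (0.317) also correlated more than pair 2 did (0.217). Whether replicates 4 and 5 are independent was not tested. Samples held 66269311 to 131555873 counts. The part of counting in the spread between replicates was not measured. It can matter for scarce genes such as IGFBP2, at 16 to 169 counts a sample. Alternatives were DESeq2 1.42.0, limma-voom (limma 3.58.1), other scaling, other filters, no block and replicates left out.

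The members and the pathway lists were chosen with earlier results of these data known. From each pathway list up to 2 rises and 2 falls were named, the largest with an adjusted p-value under 0.05 and 1 direction in 5 pairs. The 3 most similar genes were sought for the 3 members with the highest mean CPM. Some of these results and of those on epithelial markers are not reported here. PAPPA, MARCHF4, genes of proliferation and genomic neighbours were added after values were seen.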

Additional observations from a re-analysis of the deposited data

Results flagged for a closer look

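Of 18 groups of 5 values (9 genes in control and in irradiated samples), 1 held a sample whose gap to the nearest other sample exceeded Dixon's criterion, where chance gives about 1 in 20 groups, or 0.9 here. This was irradiated replicate 3 for IGFBP1, at 15.0 CPM against 3.19 to 5.78 in the other irradiated samples. The same sample was the highest for IGFBP3 (655.5 CPM) and IGFBP6 (14.6 CPM), without passing the criterion there.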

How the results depend on the processing

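The 4 rises (IGFBP1, IGFBP3, IGFBP4 and IGFBP6) and the fall of IGFBP2 were called under each of 14 alternatives, with log2 fold changes of 2.71 to 3.69, 3.02 to 3.67, 1.34 to 1.55, 0.76 to 1.07 and -1.91 to -1.61 and adjusted p-values of at most 0.0021, 0.000841, 0.00143, 0.00393 and 0.0021. The number of members called lower was 2 without replicates 1 and 3, where IGFBP5 stood at -0.24 (adjusted p = 0.0161 in edgeR, where its alternatives span 0.0161 to 0.975). Its direction there was fixed by the choice, as the pairs left out were those in which IGFBP5 was higher after irradiation. In that fit IGFBP7 stood at 0.0155 and IGF1R at 0.000325, on the other side of 0 from the value with all pairs but not called. Other changes of sign were around 0 and not called: with library size as the only scaling IGFBP5 was at -0.0333 and IGF2R at -0.0420, with a minimum of 1 count IGF2R was at -0.0011, and with no replicate block IGFBP5 was at -0.0728. With single replicate numbers left out, the log2 fold change ran from -0.0907 to 0.143 for IGFBP5 and from -0.0767 to 0.0021 for IGFBP7. The block changed no call of a member. Library size alone shifted the median of all genes to -0.09 and called 19 pathway genes lower in place of 12, and its share of rises among called genes was 38.0%, against 51.4%. Values of IGFBP2 and of control IGFBP1 rest on 16 to 169 counts a sample.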
